A study of Mus musculus with 2 samples.

Results

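Dense clusters of distal intervals are stretches of the mouse genome in which many accessible regions lie close together and away from protein-coding promoters. Promoters of noncoding genes were not left out. They were found among the consensus intervals of an ATAC-seq experiment, an assay of open chromatin based on insertions by the Tn5 transposase. Autosomal intervals over 2.5 kb from every protein-coding transcription start site (TSS) were called distal, those with gaps of 12.5 kb or less were joined, and joined groups of 10 or more intervals were kept. This gave 772 clusters with 10782 member intervals, out of 97071 distal intervals and 119502 intervals in all. The rule used positions and no counts. The intervals are peaks called from 5 libraries that include the 2 used here, so their number, spacing and length can depend on signal. Counts are therefore not fully independent of membership.

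The cells came from the mouse embryonic stem cell line Olig2-mKate2, which carries a red fluorescent protein behind Olig2. They were differentiated to neural progenitors (NPs) with bFGF and LGK, then with bFGF, CHIR99021, SB-431542 and DMH1, and up to day 5 with 100 nM RA (retinoic acid) and 100 nM SAG, which activates Sonic hedgehog (Shh) signalling. Live mKate2-positive cells were sorted and 50000 were used per transposition. There were 2 replicate libraries in a single group, with 31876165 and 31672240 counts in intervals, so no conditions were compared. The line is 1 reporter line, the sources used here do not say whether the replicates came from separate cultures, and the study's text states that cells sorted this way also include young motor neurons and some cells with NKX2.2. Of the 15 ventral progenitor genes listed for this work, 14 had an interval at their TSS, as did 68.3% of all autosomal genes with a protein-coding transcript, 7 of 9 neuromesodermal, 7 of 10 feeder fibroblast and 5 of 8 pluripotency genes. Density at the Olig2 TSS was 963 normalised counts per kb in replicate 1 and 930 in replicate 2.

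Distal accessible regions include enhancers, insulators and other regulatory DNA that transcription factors keep free of nucleosomes. Genes that control development often have several enhancers spread over long introns and intergenic stretches, and the term super-enhancer or stretch enhancer is used for groups with unusually high signal of activating factors or histone marks. Accessibility alone does not tell an active enhancer from a poised or insulating element, and a nearest gene is a label of position, not a known target.

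The middle 300 bases of the interval with the highest mean count of 3 clusters are shown first, as they had the highest means beside a pair of neural progenitor factors and in the cluster with the highest summed count. They were read from the plus strand of GRCm38.p6 (mm10), and capitals mark matches on either strand to 14 short motifs given further on. The window beside Sox1 is at chr8:12430428-12430727, and its whole interval overlaps an exon of an annotated gene. The window beside Sox2 is at chr3:34663975-34664274, and its whole interval also overlaps an exon. The window in Gse1, at chr8:120374691-120374990, is from an intronic interval.
Sox1: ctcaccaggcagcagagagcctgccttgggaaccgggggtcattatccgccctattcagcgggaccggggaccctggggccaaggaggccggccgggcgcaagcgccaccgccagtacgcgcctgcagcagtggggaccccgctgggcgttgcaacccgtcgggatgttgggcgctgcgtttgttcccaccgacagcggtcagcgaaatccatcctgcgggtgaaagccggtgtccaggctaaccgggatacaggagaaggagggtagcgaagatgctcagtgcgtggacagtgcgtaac
Sox2: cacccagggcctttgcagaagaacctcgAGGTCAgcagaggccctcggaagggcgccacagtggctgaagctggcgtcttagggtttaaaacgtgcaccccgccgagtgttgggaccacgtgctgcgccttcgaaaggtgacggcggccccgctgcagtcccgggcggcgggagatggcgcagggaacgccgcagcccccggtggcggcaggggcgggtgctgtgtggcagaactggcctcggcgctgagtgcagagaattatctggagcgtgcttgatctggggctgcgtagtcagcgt
Gse1: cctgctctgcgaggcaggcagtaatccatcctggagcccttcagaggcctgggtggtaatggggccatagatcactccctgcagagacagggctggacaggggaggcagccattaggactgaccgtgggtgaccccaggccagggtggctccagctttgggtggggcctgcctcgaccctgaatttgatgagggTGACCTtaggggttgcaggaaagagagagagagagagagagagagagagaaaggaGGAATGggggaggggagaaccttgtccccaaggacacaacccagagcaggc
The Sox2 window held 1 match to the nuclear receptor motif, and the Gse1 window 1 match each to the nuclear receptor motif and the TEAD motif. The Sox1 window held 0 matches. GC content was 66% in the Sox1 window, 66.7% in the Sox2 window and 60.3% in the Gse1 window.

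The clusters were mostly small. The median cluster had 12 intervals (range 10 to 63) over 63.7 kb (20.2 to 268 kb), with a median gap of 4.31 kb, and accessible intervals covered 12.8% of the median span. Of the 772 clusters, 187 had exactly 10 intervals and 81 had 20 or more. Clusters with 10 intervals had a median summed normalised count of 1321 and a median interval density of 125 per kb, and the 236 joined groups with 9 intervals, just outside the rule, had 1034 and 122. The rule thus cut through a continuous distribution. The members covered 7.23 Mb, and the spans of the clusters took up 2.22% of the autosomes.

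Member intervals made up 11.1% of distal intervals and 12.7% of the distal bases, and held 15.3 ± 0.0366% (SD, n = 2) of distal counts. They had 1963275 counts in replicate 1 and 1999648 in replicate 2. Members were longer than other distal intervals, with medians of 541 and 454 bp, and had more counts each, with medians of 66 ± 1.38 and 51.5 ± 0.677 normalised counts (SD, n = 2). Per kb the typical member was only slightly more accessible: the median density was 126 ± 1.98 against 122 ± 1.99 (SD, n = 2). The ratio of the medians was 1.03 in both libraries, and it was 0.97 when both sets were limited to intervals with a GC content of 45 to 55% and also 0.97 for exonic intervals. Both medians were higher in replicate 2, and the direction of the difference was the same in both libraries.

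The upper part of the distribution differed more. The 90th percentile of density was 520 in replicate 1 and 527 in replicate 2 among members, and 365 and 369 among other distal intervals, a ratio of 1.43 ± 0.00183 (SD, n = 2). Among intervals of 400 to 600 bp this ratio was only 1.25 ± 0.0126 (SD, n = 2). For exonic intervals it was 1.19 in replicate 1 and 1.21 in replicate 2. With repeats of at most 10% it was 1.34, and within GC contents of 45 to 55% it was 1.37. It was higher for intronic intervals (1.46) and intergenic intervals (1.49). A mean normalised count over 100, the limit used by the study for its own tests, was reached by 4069 members (37.7%), against 30.5% of all distal intervals and 29.6% of the others. Members were thus above the background of all distal intervals, and their lead over the others, taken from the counts of each library and then averaged, was 7.97 ± 0.183 points (SD, n = 2). Part of this moved with length: among intervals of 400 to 600 bp the lead was 4.0 ± 0.302 points, where 27.8% of members and 24.0% of others had a mean over 100. Without chromosome 8 it was 8.41 points, and within GC contents of 45 to 55% it was 7.69 points. By annotation, the lead was 10.5 ± 0.445 points for intergenic intervals, 8.55 points for intronic intervals and 3.33 ± 0.214 points for exonic intervals.

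**Figure D1:**
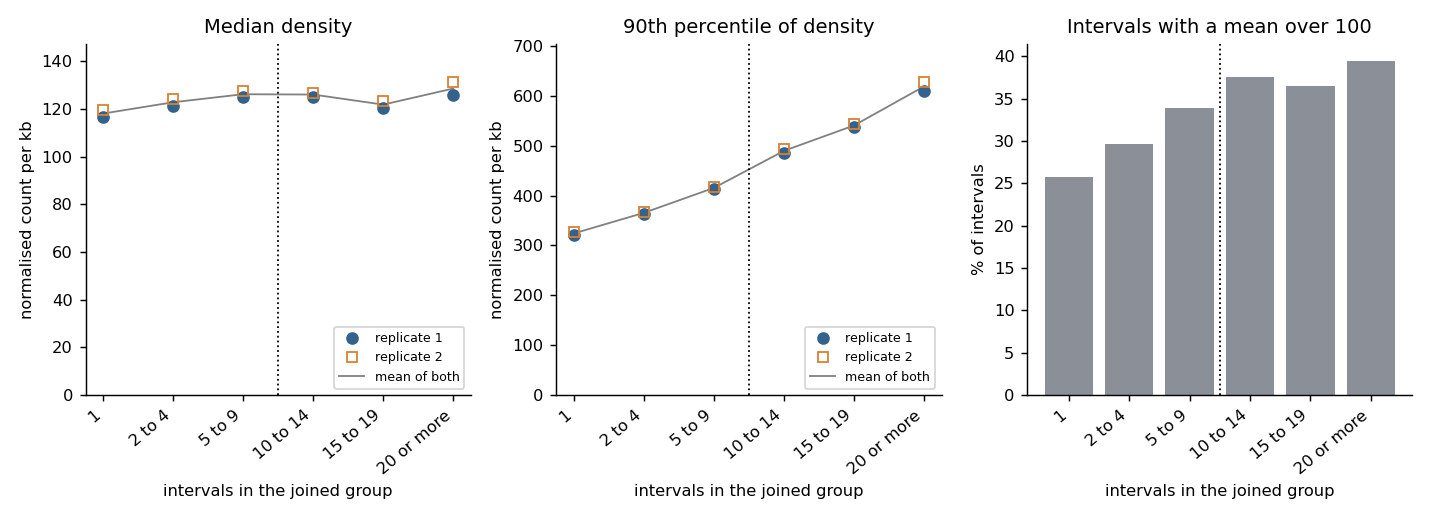
Median density, 90th percentile of density (normalised counts per kb, circles and squares for the 2 libraries, line for their mean) and the percentage of intervals with a mean normalised count over 100, by the number of intervals in the joined group; groups right of the dotted line are dense clusters. The median stayed between 118 and 129, while the 90th percentile went from 322 for lone intervals to 621 in clusters of 20 or more.

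Values were also compared by group size. Median density was 118 for the 23464 lone intervals, 123 in groups of 2 to 4, 126 in groups of 5 to 9 and 10 to 14, 122 in groups of 15 to 19, and 129 ± 4.10 (SD, n = 2) in groups of 20 or more. Replicate 2 was higher in every class, and within libraries the step from lone intervals to groups of 2 to 4 was 4.74 in replicate 1 and 4.75 in replicate 2, the step to groups of 5 to 9 was 3.54 and 3.22, and the next, to groups of 10 to 14, was 0.276 and -0.555. The last steps were -4.94 and -3.51 and then 5.43 and 8.09, so the median did not go up with group size throughout. The 90th percentile went up at every step, from 322 through 363, 416, 492 and 540 to 621. The share over 100 went from 25.8% for lone intervals to 39.5% in groups of 20 or more, with 37.5% in groups of 10 to 14 and 36.5% in groups of 15 to 19. Dense clusters thus held both ordinary intervals and a larger number of very open ones.

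Within a cluster, counts were unevenly divided. The strongest interval held a median of 31.6 ± 0.162% (SD, n = 2) of the cluster's counts, from 8.50% in the Gse1 cluster (taking the strongest interval of each library, which differed) to 91.1% in the cluster nearest to Gm31371. It was the same interval in both libraries in 725 of 772 clusters. In 106 clusters the strongest interval held 50% or more, and in 16 clusters no interval had a mean over 100. The median cluster had 5 such intervals. Neighbouring members resembled each other more than neighbours in smaller groups: across 10010 adjacent pairs Pearson's r of log2 density was 0.34, and across 43235 pairs in groups of 2 to 9 it was 0.27. Adjacent intervals can share fragments and base composition, and pairs of intervals are not replicates.

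The progenitor clusters show how different such profiles can be. Sox1 encodes an HMG-box factor of neural progenitors, and its cluster on chromosome 8 had 18 intervals over 109 kb that spanned the Sox1 TSS; 8 of them overlapped the noncoding gene Sox1ot. Its summed normalised count was 10806 in replicate 1 and 10554 in replicate 2, eighth highest of all clusters. Of its intervals 4 had means over 1000, the strongest of them 2824 and 2980, at 34.4 kb from the TSS. Another, 5.41 kb from the TSS, had 2348 and 2338. The 3 strongest intervals together held 65.1% of the counts, so the Sox1 signal was spread over several elements.

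Olig2 encodes the basic helix-loop-helix factor that defines motor neuron progenitors and drives the reporter. Its cluster, at chr16:91160798-91212199, had 11 intervals, all intergenic, and ended 13.3 kb from the Olig2 TSS. The sum was 5248 in replicate 1 and 5440 in replicate 2. One interval of 1490 bp, 31.6 kb from the TSS, had 3277 and 3376 normalised counts and held 62.3% of the sum. The other 10 intervals had means between 31.5 and 632. This was a cluster dominated by 1 element, with 1971 and 2064 normalised counts left in the rest.

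Sox2, the related factor of pluripotent cells and neural progenitors, had a cluster of 15 intervals with 4412 and 4419 normalised counts. It spanned the Sox2 TSS, and 10 of its intervals overlapped the noncoding gene Sox2ot, within which Sox2 lies. Its strongest interval, 12.3 kb from the TSS, had 1151 in replicate 1 and 1133 in replicate 2, and the next had 955 and 918. The first interval held 25.9% of the counts, near the 27.2% in the Sox1 cluster. The 3 strongest held 65.1%, the same share as in the Sox1 cluster. The other 12 listed ventral progenitor genes were nearest to no dense cluster, although Irx3 had 47 nearest distal intervals, Foxa2 39, and Nkx6-1 and Sp8 29 each.

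**Figure D2:**
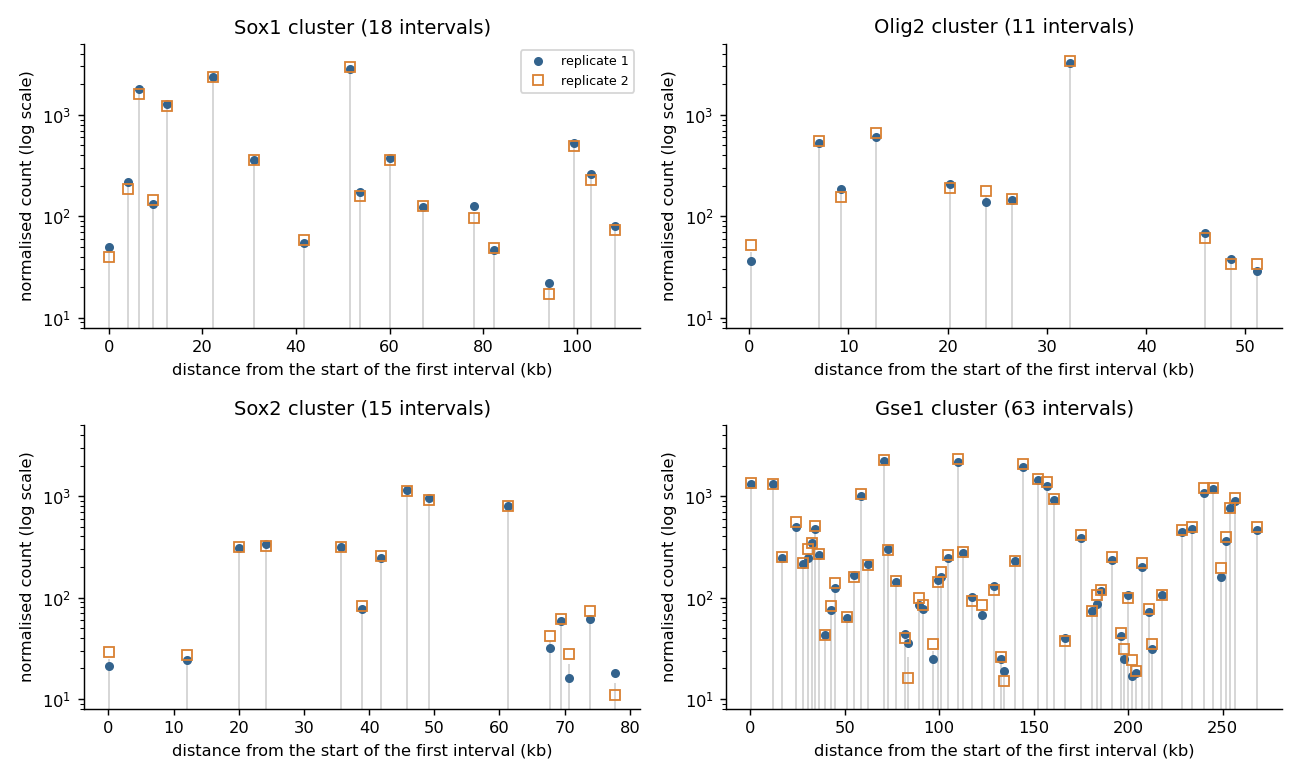
Normalised count (log axis) of every member interval of the Sox1, Olig2, Sox2 and Gse1 clusters in replicate 1 (circles) and replicate 2 (squares), placed by distance in kb from the start of the cluster's first interval. A single interval of the Olig2 cluster stands near 3300, while the Gse1 cluster has 10 intervals over 1000.

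The largest cluster by intervals and by counts lay within Gse1, a gene for a coiled-coil nuclear protein. It had 63 intervals over 268 kb, all inside the gene, at chr8:120264723-120533097, and all 63 also overlapped the readthrough model Gm20388. The sum, not adjusted for the higher level of chromosome 8 given further on, was 25997 in replicate 1 and 27242 in replicate 2. Of its intervals 42 had a mean over 100 and 10 a mean over 1000, and the 3 strongest held only 24.3% of the counts. The interval with the highest mean had 2181 and 2309 normalised counts and lay 113 kb from the nearest TSS. In replicate 1 another intronic interval, at chr8:120334606-120336372, was higher, with 2217 and 2256, so the libraries did not agree on the strongest interval of this cluster.

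The other 9 clusters with the highest sums were on 4 chromosomes. The second, with 41 intervals at chr2:30586893-30796917, spanned the TSS of Cstad and had 19479 and 19060 normalised counts. The third, at chr11:3123275-3184043, had 17443 and 18446 in 21 intervals, 19 of them in Sfi1, a gene for a centrosomal protein. Next came 21 intervals around Cuedc1 (chr11:88086554-88198726), with 13195 and 13466 normalised counts, of which 28.8% were in 1 intronic interval. The fifth was nearest to Ccdc182 by TSS, but all of its 54 intervals lay in Msi2, which encodes an RNA-binding protein of progenitor cells. It had 12371 and 13126 normalised counts at chr11:88344587-88605551. Nearest gene and host gene thus gave different names.

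The sixth cluster, at chr9:65109109-65207693, spanned the TSSs of Igdcc3, which encodes a cell surface protein of the immunoglobulin superfamily, and of Parp16, and 5 of its intervals overlapped the neighbouring Igdcc4. Its 16 intervals had 12137 and 11979 normalised counts, 15 of them had a mean over 100, and its density over covered bases, 952 per kb, was the highest of all clusters. The seventh lay 5.59 kb from the TSS of Irs2, an adaptor of insulin receptor signalling, at chr8:10912443-11002867, and had 11324 and 11173 in 18 intervals. The ninth was nearest to Pank3, 130 kb away, but all 47 intervals lay in Slit3, which encodes a secreted axon guidance ligand (chr11:35444477-35639793). It had 10184 and 10763 normalised counts. The tenth, with 43 intervals at chr11:18866167-19027755, spanned the TSS of Meis1, a HOX cofactor gene. It had 9828 and 9912 normalised counts, and 36 of its intervals overlapped Meis1.

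The intervals with the highest mean in these 10 clusters had 1355 to 4104 normalised counts and held 8.43 to 28.8% of their cluster, and in 9 of the 10 (all but Gse1) they were the strongest in both libraries. The one in Sfi1, 6610 bp long at chr11:3131289-3137898, had the most counts, 3995 and 4213, but only 604 and 637 per kb. The one in the Igdcc3 cluster, at chr9:65178274-65179312, had 3262 and 3283 normalised counts, and with 3140 and 3159 per kb the highest density of the 10. It overlapped an exon and lay 16.0 kb from the TSS of Parp16. The intronic one in Cuedc1, at chr11:88138812-88140324, had 3770 and 3897 normalised counts. The intergenic one by Irs2, at chr8:10921506-10922785, had 3224 and 3186. In the Cstad cluster the strongest interval, at chr2:30758293-30760612, had 2644 and 2581 and was nearer to 1700001O22Rik. Those in Msi2 (chr11:88582454-88583758), Slit3 (chr11:35505551-35506482) and Meis1 (chr11:18885488-18886285) had means of 1778 ± 59.8, 1355 ± 91.8 and 1379 ± 9.28 normalised counts (SD, n = 2).

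Clusters with many intervals were not always strong. The 10 clusters with the most intervals had 40 to 63, and besides those in Gse1, Msi2, Slit3, Meis1 and by Cstad they lay at Agap1 (49 intervals, 6919 and 7133 normalised counts), Chd7 (45 intervals, 4057 and 4256), Arid1b (44 intervals, 5703 in each library), Nedd4 (41 intervals, 5829 and 5784) and near Prok2 (40 intervals, 5402 and 5689). Chd7 and Arid1b encode chromatin remodelling proteins. The Chd7 cluster was among the 10 with the most intervals but ranked 129 by summed count, with 7 of 45 intervals over 100. The Arid1b cluster had 44 intronic intervals, of which 1 held 37.4% of the counts. Across clusters, the number of intervals and the summed count had Pearson's r of 0.49 and Spearman's rho of 0.44 as a description over 772 clusters, and a larger number of intervals itself adds to the sum.

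**Figure D3:**
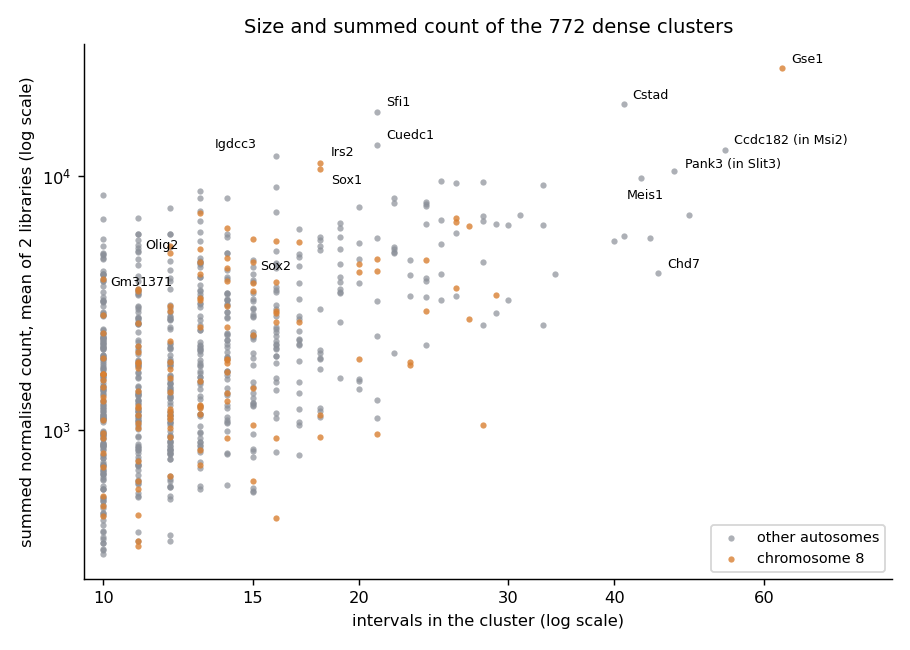
Number of intervals (log axis) and summed normalised count, mean of the 2 libraries (log axis), of the 772 dense clusters, with chromosome 8 in orange; the named points are the 10 highest sums and examples from the text. Sums of clusters with 10 intervals run from 325 to 8439.

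Per kb of span, the 5 clusters with the highest sums were those in Sfi1 (295 normalised counts per kb of span), at Lfng (196), near Copz2 (175), near Gm31371 and near Zfp184. The Lfng cluster, beside a gene for a glycosyltransferase that modifies Notch receptors, had 8227 and 8651 normalised counts in 10 intervals, and 45.2% were in 1 interval. All 13 intervals near Copz2 had a mean over 100, with 8683 and 8816 in sum. All 13 near Zfp184 did so too, with 6904 and 6409. In the Gm31371 cluster repeats made up 67.8% of the sequence, 1 interval held 91.1% of 4082 and 3817 normalised counts, and intervals with 96.7% of the counts matched other genome positions (at least 90% identity over at least 50% of the interval). In Sfi1 the share was 43.9%, in 5 intervals, and 9682 and 10444 normalised counts remained without them. With matches of 100 bp or more counted, a limit chosen after seeing the data, 8 of its 21 intervals matched elsewhere, the strongest included, and 4578 and 5077 remained without these, which would rank 94 among the clusters. Of 43 named clusters checked, 39 held no interval that matched elsewhere over at least 50% of its length. Matches of 100 bp or more were also found in 1 interval each by Irs2 and in Msi2. The clusters in Slit3, by Igdcc3 and near Zfp184 had 2 such intervals each. The part of multiply matching reads in the Sfi1 and Gm31371 values was not tested.

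The libraries differed little. Across members the R2 of log2(normalised count + 1) between libraries was 0.955. Of the 4069 members over 100, 0 differed over 2-fold and 11 over 1.5-fold. The exact binomial test of the counts of both libraries, with Benjamini-Hochberg adjustment over all 119502 intervals, called 0 members different at an adjusted p under 0.01, as it called 0% of all intervals. An unadjusted p under 0.05 was seen for 932 members (8.64%) and 7.66% of other distal intervals. This test compares the libraries, not conditions. Of all 772 cluster sums, 6 (0.777%) were called different by the same exact test, adjusted over 20362 joined groups, of which 0.0688% were called. In this exact binomial test an unadjusted p under 0.05 was seen for 146 cluster sums (18.9%) and for 9.40% of sums of groups of 2 to 9. Cluster sums have more counts and hence a narrower counting error, and the cause of the higher shares was not tested. The 6 called clusters lay in Gse1, Sfi1, Spsb4, Msi2, Ssbp3 and Lrig1 and were all higher in replicate 2, by 1.05-fold to 1.11-fold. The largest fold between libraries was 1.21, for the cluster nearest to Chrna1 (855 and 708 normalised counts), and was not called (exact binomial test, adjusted p = 0.0663).

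Chromosome 8 held far more clusters than its length would give. It had 121 of the 772 clusters (15.7%), or 9.35 per 10 Mb, against 2.79 over the other autosomes, where the range was 1.2 (chromosome 14) to 4.75 (chromosome 11). Of its distal intervals 24.8% were in dense clusters, against 10.0% elsewhere (4.77 to 15.0%). It also had 55.3 distal intervals per Mb, where the other autosomes had 33.3 to 51.6. TSS intervals of chromosome 8 had 1.42 ± 0.000997 times the median density of those on the other autosomes (SD, n = 2), strong distal intervals 1.09 times and all distal intervals 1.03 times. The part of this chromosome-wide level in the number and the sums of clusters was not tested. Of the 10 clusters with the highest sums, 3 were on chromosome 8 (Gse1, Irs2 and Sox1).

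Within chromosome 8, members were not denser than other distal intervals, with a ratio of medians of 0.97. On the other autosomes the ratio ran from 0.87 on chromosome 17 to 1.24 on chromosome 3 and was above 1 on 13 of 18. The density ratio, the share over 100, the factor gene shares and the promoter ratio were also computed without chromosome 8. Chromosome 3, with 160 Mb, had 21 clusters, in contrast to 121 on chromosome 8 with 129 Mb.

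**Figure D4:**
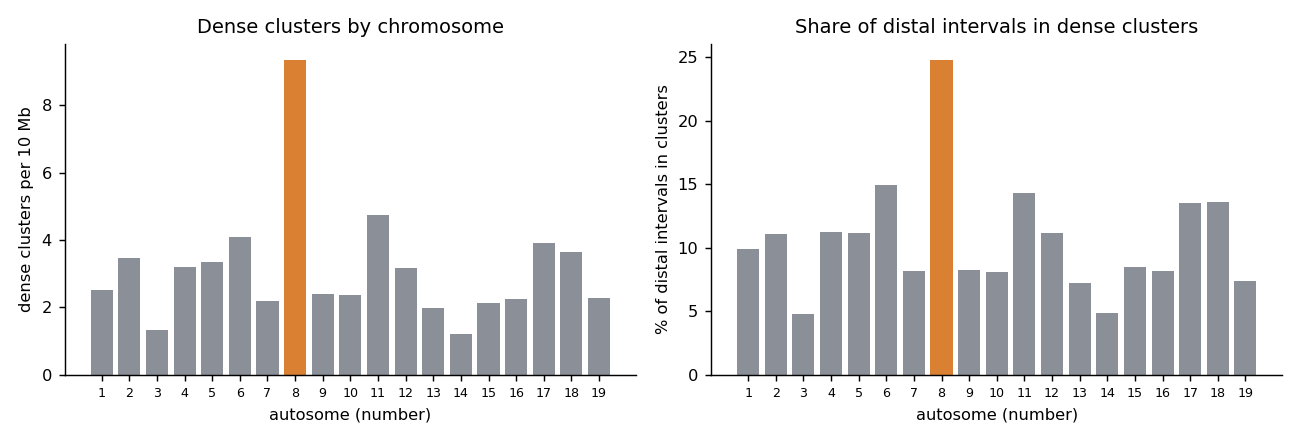
Dense clusters per 10 Mb (left) and the percentage of distal intervals in dense clusters (right) for each autosome, with chromosome 8 in orange. Chromosome 8 stands at 9.35 clusters per 10 Mb and 24.8% of distal intervals, and the next highest values are 4.75 and 15.0%.

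Most clusters lay in and around genes. Members were more often intronic than other distal intervals (57.1 and 43.8%) and less often intergenic (27.7 and 42.7%), with similar exonic shares (15.2 and 13.5%). In 482 clusters at least 50% of the intervals overlapped 1 protein-coding gene, and in 261 all of them did. For 130 of the 482 the host gene was not the gene with the nearest TSS. A protein-coding TSS lay within the span of 217 clusters, a noncoding RNA gene's within 284, and 62 clusters were wholly intergenic. Few members were in gene deserts: 4.82% lay over 200 kb from a TSS, against 14.6% of other distal intervals. The median distance was nevertheless similar, 38.5 and 37.0 kb. Median GC content was 51.2% for members and 47.9% for the others, and the median repeat share was 8.70 and 9.12%.

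The clusters had 689 different nearest genes, 3.32% of the 20780 autosomal protein-coding genes, and 67 genes were nearest to 2 or more clusters. Efna5, Irs2, Prex1 and Zfhx3 had 4 clusters each. Zfhx3 encodes a zinc finger homeobox factor, and its 4 clusters had 62 intervals with 10768 normalised counts in all (mean of both libraries). Efna5, an ephrin ligand gene, had 42 intervals in 4 clusters with 5771. Sipa1l2, Smad7, Tle3, Trio, Zfp36l1, Zfp423, Zfp516 and Zfp536 had 3 clusters each. These genes were named after their counts of clusters were seen. Irs2, Zfhx3, Sipa1l2 and Zfp423 are on chromosome 8, which had 9.35 clusters per 10 Mb, against 2.79 over the other autosomes. The part of the chromosome in these counts was not tested.

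A list of transcription regulator families was recognised by symbol. It includes the Id, Lmo and Ldb families and leaves out genes named Zfp. Genes of these families were 62 of the 689 nearest genes (9.0%). They were 2.90% of the 13601 genes nearest to distal intervals but to no dense cluster, and 2.49% of all autosomal protein-coding genes. Among the 67 genes with 2 or more clusters they were 15 (22.4%). Without chromosome 8 the shares were 9.74% and 2.94%. Genes with many nearest distal intervals set a closer comparison. Among 2404 genes with 10 or more of them but no dense cluster the share was 6.49%. Among 567 genes with 10 or more and a dense cluster it was 9.35%. The 2 sets still differed in their median number of nearest distal intervals, 15 and 21. These shares are descriptions, with no test.

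The gene lists differed in how many members had a dense cluster. Of 23 axon guidance genes 9 were nearest to a dense cluster (39.1%), of 27 neuronal differentiation genes 8 (29.6%), of 24 retinoic acid and HOX cofactor genes 7 (29.2%), of 19 SOX, NFI, ZIC and POU genes 4 (21.1%), of 15 ventral progenitor genes 3 (20.0%), of 21 Notch genes 4 (19%) and of 13 Shh genes 2 (15.4%). The share was 3.32% over all autosomal protein-coding genes and 19.1% over the 2971 genes with 10 or more nearest distal intervals. None of 9 neuromesodermal, 10 feeder fibroblast and 9 other lineage genes was nearest to one (0 in each list), and 1 of 8 pluripotency genes was. List genes had more nearest distal intervals than the 2 of the median gene, with list medians from 4 in the neuromesodermal and other lineage lists to 32 for axon guidance. No list was tested against other genes.

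**Figure D5:**
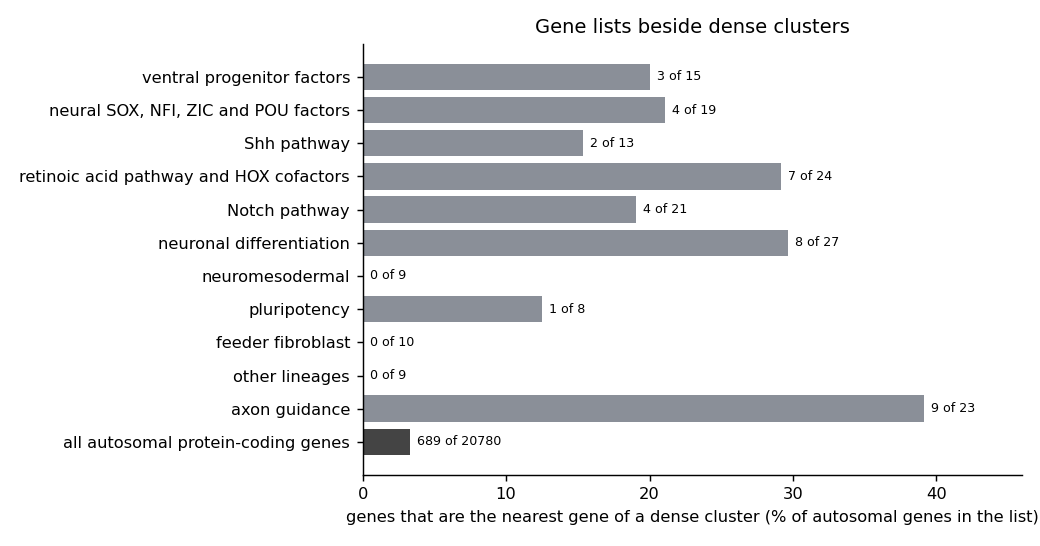
Percentage of the autosomal genes in each list that were the nearest gene of a dense cluster, with counts beside the bars; the dark bar gives all autosomal protein-coding genes. Axon guidance is highest with 9 of 23, and 3 lists have 0.

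In the axon guidance list the clusters with the highest sums lay by Slit1 (24 intervals, all in the gene, 7840 and 8076 normalised counts), Ephb2 (31 intervals, 6915 and 7117), Plxna2 (12 intervals, 4104 and 4426) and Ntn1 (14 intervals, all in the gene, 3360 and 3590). Slit1 and Ntn1 encode secreted guidance cues, Ephb2 an ephrin receptor and Plxna2 a semaphorin receptor. In the Slit1 cluster 37.6% of the counts fell in 1 interval. Slit3, the host of 47 intervals given above, was the nearest gene of a further cluster.

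In the retinoic acid and HOX cofactor list, Meis1 came first. Meis2 had 3807 and 3916 normalised counts in 11 intervals that lay 164 kb from its TSS, and 49.0% of the counts were in the strongest. Tshz1, a zinc finger gene, had 3315 and 3422 in 26 intervals. Dhrs3, which encodes a retinal-reducing enzyme, Rxra, a retinoid receptor gene, and Tshz3 were also nearest to a dense cluster.

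In the Shh list, Gas1, a co-receptor gene, had a cluster of 10 intervals with 3840 and 3928 normalised counts, 28.9 kb away. Gli2, a main effector of Shh signalling, had 2 clusters. One, with 14 intervals inside the gene, had 2631 and 2929 and 52.0% in 1 interval, and the other, intergenic with 10 intervals, had 669 and 682. Ptch1 and Sufu were host genes of clusters whose nearest gene was another.

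In the Notch list Lfng was followed by Maml3, a coactivator gene, with 2 clusters inside the gene of 6237 and 6327 and of 2831 and 2765 normalised counts. Notch2 had 19 intervals inside the gene with 3931 and 4109. The fourth gene was Maml2.

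Some genes of young neurons, 8 of the 27 listed, were nearest to a dense cluster as well. Lhx3, a LIM homeobox gene of motor neurons and V2a interneurons, had 4629 and 4487 normalised counts in 13 intervals, 38.4% of them in 1 interval. Of the 13 intervals 8 were nearest to Lhx3, and the strongest was nearest to Nacc2. Ebf3 had 2 clusters of 12 intervals, with 3684 and 3518 and with 1548 and 1539, and Ebf2 had 1959 and 2068 in 18 intervals inside the gene; both encode factors of early neuronal differentiation. The cluster nearest to Insm1 had 3091 and 3297 in 10 intervals, all of them in Ralgapa2. Ebf1, Elavl4, Neurod4 and Onecut3 were the other 4. The rest of the list was nearest to none, among them Isl1, with 25 nearest distal intervals, Mnx1, Neurog2, Tubb3 and Stmn2.

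Of the SOX, NFI, ZIC and POU genes, Sox13 had 4061 and 4191 normalised counts in 10 intervals. Sox4 was nearest to 2 clusters that lay 131 and 229 kb from its TSS, with 3861 and 3931 in 15 intervals and 2091 and 2157 in 12. The Sox6 cluster, 239 kb away and wholly intergenic, had 1143 and 1096 in 11 intervals. Nfib was the fourth gene, and Nfix hosted a cluster nearest to another gene. In the pluripotency list, Klf2 on chromosome 8 had a weak cluster of 18 intervals with 968 and 921, of which 12 lay in Eps15l1.

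Genes nearest to dense clusters more often had an open promoter. A TSS interval was found for 629 of the 689 (91.3%) and for 10394 of 13601 other genes nearest to a distal interval (76.4%). Where there was one, the median TSS density was 890 ± 13.1 and 836 ± 18.9 (SD, n = 2). The ratio was 1.06 ± 0.00837 (SD, n = 2), and 1.05 without chromosome 8. With genes lacking a TSS interval counted as 0, the ratio was 1.38.

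Ranking all 43826 joined groups by summed count, in the way used to define super-enhancers from other signals, put the tangent point at a sum of 1554. Above it were 1459 groups, of which 450 were dense clusters (30.8% of those above, and 58.3% of all dense clusters). Of the 23464 lone intervals 99 were above it, and of 3410 groups with 5 to 9 intervals 15.3%. Among the 100 highest sums 81 were dense clusters. The rule chose dense clusters by their number of intervals, and more intervals add to the sum, so their high ranks follow in part from the rule. With replicate 1 alone 1626 groups were above its own tangent point, and with replicate 2 alone 1351.

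Short motifs were counted in the middle 300 bases of each interval on both strands. The SOX motif ACAATG was in 18.9% of members and 24.4% of other distal windows (23.8% of all distal windows). Within windows of 45 to 55% GC the shares were 19.5 and 22.7%. The homeodomain motif TAATTA was in 6.31 and 8.11% (7.91% of all), and in 5.80 and 6.07% within that GC range. The E-box CAGCTG was in 25.5 and 22.6% (22.9% of all), and in 24.6 and 24.8% within the GC range. The part of CTCF's motif AGGGGGC was in 7.63 and 6.17% (6.33% of all), and in 6.46 and 6.60% within the range. Of these 4, only the SOX motif kept a difference of over 1 percentage point within the GC range. GC was not matched further inside the range. Before this limit the median window GC was 51% in members and 47.7% in other distal windows.

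For the other 10 motifs the shares in members and in the remaining distal windows were within 1.2 points of each other. The E-boxes CATATG and CATCTG were in 4.76 and 29.0% of members and in 5.70 and 29.3% of all distal windows. The nuclear receptor motif AGGTCA was in 22.6% of members and 22.4% of all, the TEAD motif GGAATG in 21.1 and 22.1%, the NFI motif part TTGGCA in 15.2 and 15.7%, and the AP-1 motif TGANTCA in 9.70 and 10.7%. The RFX motif part GTTGCCA was in 4.67 and 4.80%, the forkhead motif TGTTTAC in 4.37 and 4.81%, the octamer ATGCAAAT in 1.84 and 2.29%, and the GLI motif TGGGTGGTC in 0.584 and 0.502%. The NFI and RFX motif parts share letters and can overlap. Within windows of 45 to 55% GC, AP-1 and CATCTG matches were less frequent in members by more than 1 point, with 9.70 and 30.4% of members and 11 and 31.6% of the others. A match is only a match of letters.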

How the data were processed

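The authors deposited raw fragment counts for 119502 consensus intervals. By the study's methods, reads were aligned to mm10 and MACS peaks joined with the nf-core atacseq pipeline, and per the file header fragments were counted with featureCounts (2.0.1), each in every interval it overlapped by a fraction of 0.2 or more. The table has 3 further columns that belong to no sample of the series; none was used here, but all 5 libraries shaped the interval set. How reads with several matching positions were handled is not given in the sources used here.

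Normalised counts are counts over DESeq2 (1.42.0) size factors, and densities are normalised counts per kb of interval. The libraries held 31876165 and 31672240 counts. Fragments carry no molecular identifiers, so counting error is a lower limit of the error. GENCODE transcripts gave protein-coding TSSs, and gaps run from the end of an interval to the start of the next. A cluster takes the gene whose TSS is nearest to more of its members than that of any other gene. This need not be a majority: the lowest share was 38.5%. A host gene overlaps at least 50% of the members. Repeats and sequences are from RefSeq GRCm38.p6. BLAST+ (2.17.0, megablast, seeds outside repeats) searched named clusters for other positions with at least 90% identity over at least 100 bp. Each interval and each group's sum was tested between libraries with a two-sided exact binomial test and Benjamini-Hochberg adjustment at 0.01. On data simulated with counting error alone, 200 intervals with means over 100 were changed 2-fold among 119502. The interval test recovered 184 of them with 3 false calls. Recovery was not simulated for weaker intervals, such as the median member, or with variation beyond counting error. Python 3.11.15, scipy 1.17.1 and statsmodels 0.14.6 were used.

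Clusters were named if among the 10 highest sums, the 10 with most intervals or the 5 highest sums per kb of span, or if the nearest gene was in a list (up to 4 per list with values). Some items that met this rule are not reported here. The members and the gene lists were chosen with earlier results of these data known. Alternatives covered the joining rule, the TSS set, edgeR (4.0.16) TMM factors, filters on count, length, distance and chromosome, and each library alone.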

Additional observations from a re-analysis of the deposited data

How the results depend on the processing

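The number of clusters depends on the joining rule: 772 became 27 with gaps of 5 kb, 2134 with gaps of 25 kb, and 439 when the start of every transcript of any gene type was avoided, where 53.4% of the members were kept. With 9 or more intervals required there were 1008 and with 11 or more 585, both chosen after seeing the data, and 704 when only intervals with a mean normalised count of at least 10 were joined. The ratio of median densities, 1.03, was 1.01 with a mean of at least 10, 1.02 for 400 to 600 bp, 1.01 at 10 to 100 kb from a TSS, 1.04 without chromosome 8, 1.05 for clusters of 20 or more, 1.02 with gaps of 5 kb and 1.28 as counts per interval. In comparisons chosen after seeing the data, the 90th percentile gave 1.43 (1.25 for 400 to 600 bp) and the mean 1.24. In others chosen in this way, the ratio of medians was 1.10 for intergenic intervals, 1.03 for intronic intervals and 1.00 with repeats of at most 10%. It reversed to 0.97 (0.970) within GC contents of 45 to 55% and to 0.97 (0.968) for exonic intervals; the cause was not tested. The share of distal counts was 0.48% with gaps of 5 kb, and the strongest interval's share was 23.8% by density. The promoter ratio was 1.38 with missing TSS intervals as 0, 1.08 by the gene nearest to the cluster's middle and 1.05 without chromosome 8. With 1 library left out at a time, the density ratio was 1.03 both times (1.0275 and 1.0283), the share of distal counts 15.3% both times, the strongest interval's share 31.5 to 31.7% and the promoter ratio 1.06 to 1.07. With TMM factors or the count filter, 0 members were called between libraries. No paired analysis was possible because the labels give 1 group. The depth limits weak members most: the median member had 65 and 67 counts.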

Other observations

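On the X chromosome, which the rule leaves out, the same steps gave 4 clusters with 69 of 2069 distal intervals (3.33%). Among them were those nearest to Mid1 (29 intervals, 6497 and 6522 normalised counts in replicates 1 and 2), Egfl6 (13 intervals, 3066 and 3289) and Nhs (17 intervals, 2881 and 3072). These were named after their values were seen.

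Some clusters were led by 1 interval almost as far as the one near Gm31371. The strongest interval held 81.6% of the counts in a cluster whose nearest gene, Myc, was 450.5 kb away, 81.2% in one that spanned the Grb10 TSS and 81.1% in one 3.61 kb from Kdm6b, each a cluster of 10 intervals, and these too were chosen after their values were seen. At the other end, the cluster in Prkch had 347 and 331 normalised counts in 10 intervals, none with a mean over 100.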
